A study of Arabidopsis thaliana with 9 samples.

Results

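The 6 loci MYC2 (AT1G32640), VSP1 (AT5G24780), VSP2 (AT5G24770), TAT3 (AT2G24850), CORI3 (AT4G23600) and JMT (AT1G19640) form the MYC2 branch of jasmonate output in Arabidopsis thaliana. They are 6 of the 33602 loci of the count table. The rule names them by locus and uses no measured value, but earlier results of these data were known when they were chosen. RNA had been sequenced from whole seedlings, which hold both root and shoot, of 3 genotypes: wild-type Col-0 and the lines emb1579-1 and emb1579-3, mutants of EMB1579 in the Col-0 background. All seedlings were collected after 6 days of growth at 20 °C that followed 3 days of stratification, with no hormone or wounding treatment named. The series asked how EMB1579 acts on genes of root growth, and 3 biological replicates were made per genotype. The lesions are not described in the labels, and each line stands for 1 allele.

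The results rest on 8 libraries, 2 of Col-0 and 3 of each line, with totals of 24.1 to 37.5 M counts. Col-0 replicate 3 was left out by the rule for the members. It held 1.18 M counts. Its log2 CPM (counts scaled to a common library total) had a Pearson r of at most 0.315 with any other library. Among the 8, r was 0.986 to 0.997. The EMB1579 transcript averaged 48.8 ± 0.243 CPM (SD, n = 2) for Col-0, 47.8 ± 1.04 CPM (n = 3) for the libraries labelled emb1579-1 and 1.44 ± 0.58 CPM (n = 3) for emb1579-3. The libraries labelled emb1579-1 thus had the target transcript at the wild-type level, and they are called the emb1579-1-labelled libraries below. The columns assigned to emb1579-3 carried another line number than the labels, and were assigned by elimination. The 11 root marker genes summed to 1240 to 1480 CPM in Col-0, 690 to 879 CPM in the emb1579-1-labelled libraries and 613 to 819 CPM in emb1579-3, with no marker at 0. Most of that sum was 1 gene, PYK10, at 1390 and 1150 CPM in Col-0, 801, 619 and 632 CPM in the emb1579-1-labelled libraries and 742, 572 and 531 CPM in emb1579-3. The other 10 markers summed to 90.7 and 95.1 CPM, 70.4 to 78 CPM and 71.1 to 82.2 CPM. In each line 5 of the 11 root markers were called lower and 6 were not called, with median log2 fold changes of -0.10 and -0.01. Over all genes tested, 9.54% and 10.3% were called lower. The 13 photosynthesis markers of the shoot summed to 25100 to 28700, 22800 to 26200 and 23500 to 25800 CPM. Of these 13, 4 were called lower and 0 higher in the emb1579-1-labelled libraries (median log2 fold change -0.15). In emb1579-3, 5 were lower and 1 higher (median -0.16). In whole seedlings, fewer cells of a type and less RNA per cell cannot be told apart, and the part of organ make-up in the results below was not tested.

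Jasmonates are lipid-derived hormones of wounding, insect attack and fertility. The conjugate jasmonoyl-isoleucine is bound by the F-box protein COI1 together with JAZ repressors, the JAZ proteins are degraded, and MYC2, a bHLH transcription factor, is released to act on promoters that hold a G-box or a related word. One branch, led by MYC2, turns on wound and herbivore genes such as the VSPs, and another, led by ERF1 and ORA59 together with ethylene, turns on defensins such as PDF1.2. In seedlings, jasmonate also slows root growth.

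The 6 loci lie on chromosomes 1, 2, 4 and 5 of TAIR10.1. MYC2 is at chr1:11798119-11801407 on the minus strand with 1 exon, and 98.5% of it is covered by AT1G32630 on the other strand. VSP2, at chr5:8500468-8502224, and VSP1, at chr5:8507590-8509201, are minus-strand neighbours with 3 exons each and 5365 bases between them. TAT3 is at chr2:10582074-10585216 (minus strand, 7 exons), CORI3 at chr4:12310379-12313212 (plus strand, 7 exons) and JMT at chr1:6788885-6791919 (minus strand, 4 exons). MYC2 was the only one of the 6 that overlapped another gene.

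The 300 bases before the annotated start are shown for MYC2 and CORI3, the members with a call, for the neighbouring pair VSP1 and VSP2, and for TAT3, which held the most matches. They were read from the RefSeq genome TAIR10.1 and run 5′ to 3′ along the gene's strand. Capitals mark matches to CACGTG (the G-box), CACATG or AACGTG on either strand; the last appears as CACGTT on the strand shown, and CACATG as CATGTG.
MYC2 promoter, chr1:11801408-11801707, minus strand: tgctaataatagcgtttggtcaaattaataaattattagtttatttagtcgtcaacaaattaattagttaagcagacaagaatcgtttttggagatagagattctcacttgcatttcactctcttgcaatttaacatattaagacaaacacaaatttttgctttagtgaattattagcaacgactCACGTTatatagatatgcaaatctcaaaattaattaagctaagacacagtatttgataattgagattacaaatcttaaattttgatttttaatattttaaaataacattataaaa
VSP1 promoter, chr5:8509202-8509501, minus strand: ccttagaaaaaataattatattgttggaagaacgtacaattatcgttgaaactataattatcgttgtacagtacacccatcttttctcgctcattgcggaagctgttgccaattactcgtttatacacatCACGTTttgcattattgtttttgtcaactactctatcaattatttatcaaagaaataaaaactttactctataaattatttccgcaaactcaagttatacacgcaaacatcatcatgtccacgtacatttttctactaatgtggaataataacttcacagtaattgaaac
VSP2 promoter, chr5:8502225-8502524, minus strand: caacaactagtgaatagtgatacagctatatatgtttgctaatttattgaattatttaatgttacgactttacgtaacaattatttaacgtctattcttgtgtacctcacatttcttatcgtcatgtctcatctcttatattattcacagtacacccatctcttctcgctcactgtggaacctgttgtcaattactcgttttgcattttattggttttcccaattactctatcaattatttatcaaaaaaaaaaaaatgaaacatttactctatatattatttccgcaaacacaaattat
TAT3 promoter, chr2:10585217-10585516, minus strand: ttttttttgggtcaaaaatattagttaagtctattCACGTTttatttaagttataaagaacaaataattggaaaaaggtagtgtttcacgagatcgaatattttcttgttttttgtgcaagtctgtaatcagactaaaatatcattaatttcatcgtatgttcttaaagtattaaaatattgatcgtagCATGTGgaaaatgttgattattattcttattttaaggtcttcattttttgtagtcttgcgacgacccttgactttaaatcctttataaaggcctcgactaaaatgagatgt
CORI3 promoter, chr4:12310079-12310378, plus strand: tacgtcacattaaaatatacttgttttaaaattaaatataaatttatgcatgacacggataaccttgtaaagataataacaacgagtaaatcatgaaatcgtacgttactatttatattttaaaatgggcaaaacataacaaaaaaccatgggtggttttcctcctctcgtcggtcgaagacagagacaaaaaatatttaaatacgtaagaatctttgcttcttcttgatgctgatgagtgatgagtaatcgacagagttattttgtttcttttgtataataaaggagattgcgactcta
AACGTG was found in MYC2, from 115 to 110 bases before the start, in VSP1, from 170 to 165 bases before it, and in TAT3, from 265 to 260 bases before it. TAT3 also held CACATG from 111 to 106 bases before its start. CACGTG was found in 0 of the 6 windows, against 7.2% of 26711 promoters of this length. At least 1 of the 3 words was in 3 of 6 windows, against 26% of all promoters, 13.1% for CACATG and 8.8% for AACGTG. These are matches of letters, and they do not locate a binding site.

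Among the 6 genes, MYC2 rose in the emb1579-1-labelled libraries and CORI3 rose in emb1579-3, and no member passed the test between the lines. The calls are from edgeR's quasi-likelihood test on counts, adjusted over 20668 genes at a threshold of 0.05. All 6 members passed the filter on low counts. Against Col-0, 1 of 6 members was higher and 0 lower in the emb1579-1-labelled libraries, where 17.8% of all genes tested were called (8.27% higher, 9.54% lower). In emb1579-3, 1 of 6 was higher and 0 lower, where 20.3% of all genes were called (9.95% higher, 10.3% lower). Between the lines 0 of 6 were called, against 0.818% of all genes (0.416% higher, 0.402% lower), and MYC2, VSP1 and VSP2 had an unadjusted p under 0.05. DESeq2 called 1 member between the lines, VSP2. The shares called among 6 genes are near those of the whole table. The median log2 fold change of the 6 was -0.03, 0.45 and 0.45 in the comparisons as listed, against 0.00, 0.00 and 0.01 over all genes. The first and second comparisons share their Col-0 libraries.

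**Figure D1:**
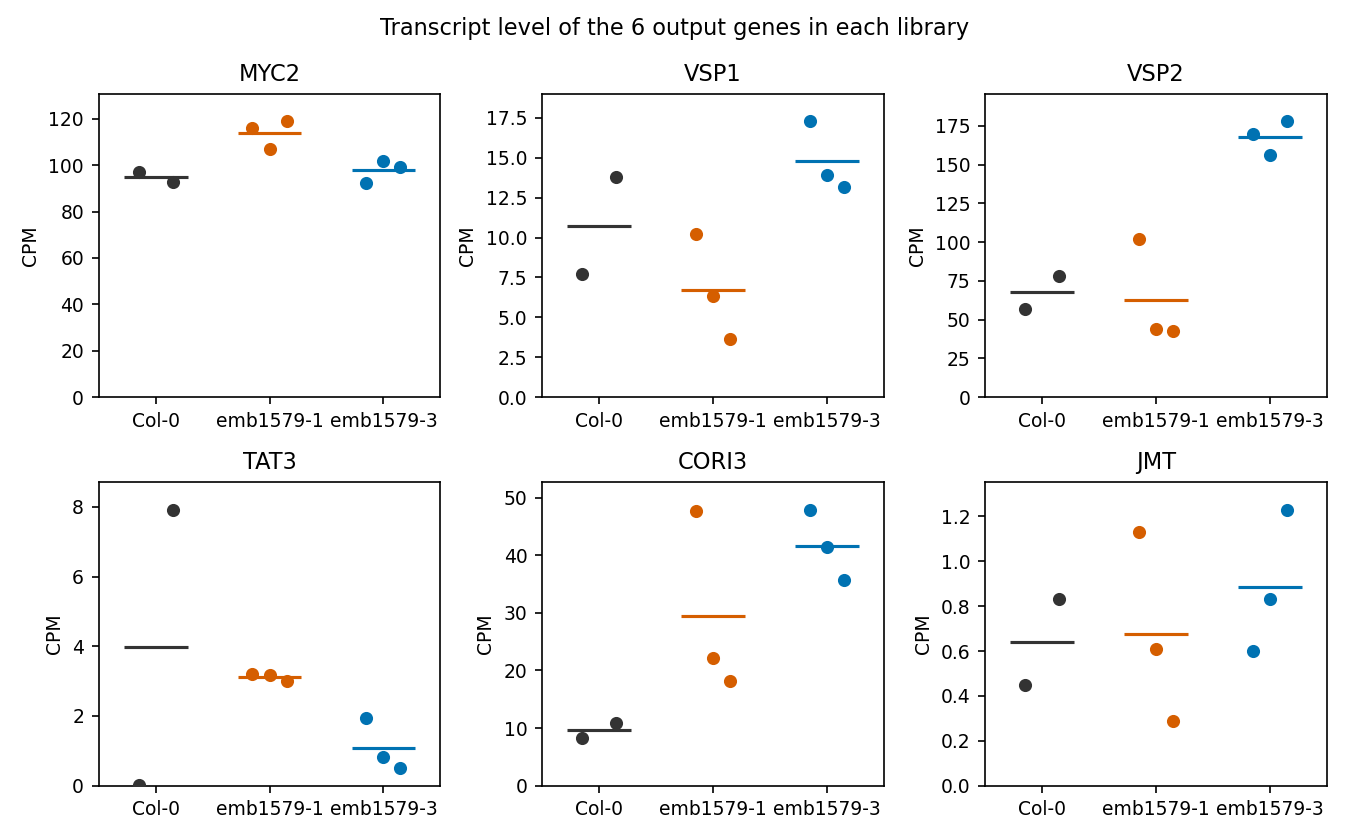
Transcript level (CPM on TMM-scaled totals, linear axis from 0) of each of the 6 genes; points are libraries (2 of Col-0, 3 labelled emb1579-1, 3 of emb1579-3) and bars are group means. CORI3 was at 18.2 to 47.9 CPM in the 6 libraries of the lines and at 8.35 and 10.9 CPM in Col-0, VSP2 was at 156 to 178 CPM in emb1579-3 and at 102 CPM or less elsewhere, and TAT3 lay at both ends of its range in the 2 Col-0 libraries.

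MYC2, the bHLH factor that gives the branch its name, was at 97.0 and 92.9 CPM in Col-0. It was at 116, 107 and 119 CPM in the emb1579-1-labelled libraries and at 92.3, 102 and 99.3 CPM in emb1579-3. The emb1579-1-labelled libraries were all above both other genotypes, and Col-0 and emb1579-3 overlapped. The means were 95 ± 2.87, 114 ± 6.17 and 98.0 ± 5.22 CPM. Against Col-0, MYC2 rose 1.2-fold in the emb1579-1-labelled libraries (log2 fold change 0.26, SE 0.09, adjusted p = 0.0367 by edgeR). In emb1579-3 the log2 difference was 0.05 (SE 0.08, adjusted p = 0.764), with a 95% interval from -0.13 to 0.22. The lines differed by -0.22 (SE 0.08, adjusted p = 0.297). The antisense neighbour AT1G32630 was at 2.9 to 3.82 CPM in the 8 libraries, and with both loci summed the log2 change in the emb1579-1-labelled libraries was 0.26 (adjusted p = 0.04). MYC2 no longer passed the edgeR test without emb1579-1 replicate 3 (adjusted p = 0.138) or emb1579-3 replicate 1 (0.0541), and with Col-0 replicate 3 added (0.785). The call was also lost with no filter on low counts (0.0521) and with only the genotypes of the comparison fitted (0.0659). It was lost too without Col-0 replicate 1 or 2, which leaves 1 Col-0 library, at log2 changes of 0.31 and 0.23.

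VSP1 and VSP2 encode vegetative storage proteins of the acid phosphatase family that accumulate on jasmonate and wounding. VSP2 was at 56.8 and 78.3 CPM in Col-0, at 102, 44.1 and 42.7 CPM in the emb1579-1-labelled libraries and at 170, 156 and 178 CPM in emb1579-3. The 3 emb1579-3 libraries lay above the other 5, while Col-0 and the emb1579-1-labelled libraries overlapped. The means were 67.5 ± 15.3, 62.9 ± 33.8 and 168 ± 11.4 CPM. In emb1579-3 the fitted level was 2.49-fold that of Col-0 (log2 fold change 1.31, SE 0.45, 95% interval 0.17 to 2.46), which missed the threshold (adjusted p = 0.112). It was 2.68-fold that of the emb1579-1-labelled libraries (1.42, SE 0.39, adjusted p = 0.344). In the emb1579-1-labelled libraries the log2 difference from Col-0 was -0.11 (SE 0.44, adjusted p = 0.91).

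The call on VSP2 depended on the method and on 1 library. With all 8 libraries, DESeq2 called it higher in emb1579-3 than in Col-0 (adjusted p = 0.0305) and than in the emb1579-1-labelled libraries (adjusted p = 0.0445), and so did edgeR without robust estimates (adjusted p = 0.00462 and 0.0117). Without emb1579-1 replicate 1, at 102 CPM, VSP2 was higher in emb1579-3 than in Col-0 (log2 fold change 1.31, adjusted p = 1.07e-06) and than in the other emb1579-1-labelled libraries (1.95, SE 0.12, adjusted p = 4.8e-07). Those 2 libraries were then lower than Col-0 (-0.64, SE 0.12, adjusted p = 0.00189). The library left out had the highest VSP2 level of its line, so its omission narrowed the spread. Leaving out any other 1 library of the lines gave no call on VSP2 in emb1579-3 against Col-0 (adjusted p = 0.111 to 0.236 by edgeR).

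VSP1 was at 7.71 and 13.8 CPM in Col-0, at 10.2, 6.32 and 3.67 CPM in the emb1579-1-labelled libraries and at 17.3, 13.9 and 13.2 CPM in emb1579-3. The lines did not overlap each other, and both overlapped Col-0. The log2 difference was -0.69 (SE 0.45, adjusted p = 0.386) in the emb1579-1-labelled libraries, 0.45 (SE 0.43, adjusted p = 0.55) in emb1579-3 and 1.14 (SE 0.41, adjusted p = 0.478) between the lines, with a 95% interval from 0.11 to 2.17 for the last. The transcripts of VSP1 and VSP2 were 88.7% identical over 1283 aligned bases, and their longest identical run was 54 bases. They shared 5 words of 50 bases, 0.4% of those of VSP1 and 0.3% of those of VSP2, so few stretches of that length could be counted for either gene. The ratio of VSP2 to VSP1 was 7.36 and 5.69 in Col-0, 10, 6.98 and 11.6 in the emb1579-1-labelled libraries and 9.85, 11.2 and 13.6 in emb1579-3. With both loci summed, the log2 difference was 1.22 in emb1579-3 (SE 0.45, adjusted p = 0.131) and -0.17 in the emb1579-1-labelled libraries (adjusted p = 0.849).

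CORI3, a cystine lyase of the tyrosine aminotransferase family that responds to coronatine and jasmonate, had the largest fitted difference from Col-0 among the 6. It was at 8.35 and 10.9 CPM in Col-0, at 47.7, 22.2 and 18.2 CPM in the emb1579-1-labelled libraries and at 47.9, 41.4 and 35.6 CPM in emb1579-3. All 6 libraries of the lines were above both Col-0 libraries, and the lines overlapped each other. The means were 9.63 ± 1.8, 29.4 ± 16 and 41.6 ± 6.17 CPM. CORI3 rose 4.31-fold in emb1579-3 (log2 fold change 2.11, SE 0.50, adjusted p = 0.0395). In the emb1579-1-labelled libraries it was 3.03-fold that of Col-0 (1.60, SE 0.49, 95% interval 0.35 to 2.86), which missed the threshold (adjusted p = 0.0927). The lines differed by 0.51 (SE 0.40, adjusted p = 0.802), with an interval from -0.51 to 1.52. Its tandem neighbour AT4G23590 shared 0 words of 50 bases with it and had log2 differences of 0.37 and 0.27.

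CORI3 in emb1579-3 no longer passed without Col-0 replicate 1 (adjusted p = 0.166), Col-0 replicate 2 (0.136), emb1579-1 replicate 2 (0.0587) or any 1 emb1579-3 library (0.086 to 0.0986), and with Col-0 replicate 3 added (0.0679), while the log2 fold change stayed within 1.94 to 2.31. In the emb1579-1-labelled libraries the call on CORI3 depended on the method. With all 8 libraries, DESeq2 called it higher than in Col-0 (1.62, adjusted p = 0.00478). So did edgeR without robust estimates (1.60, adjusted p = 0.00261). The reported edgeR test was passed there without emb1579-1 replicate 1 (1.07, SE 0.17, adjusted p = 0.00109). Without that library the lines also differed (1.04, SE 0.15, adjusted p = 0.00331).

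TAT3, annotated as a tyrosine aminotransferase and a widely used marker of jasmonate response, was set apart by its Col-0 libraries. It had 1 count in Col-0 replicate 1 (0.0321 CPM) and 295 counts in replicate 2 (7.92 CPM), a ratio of 247 with an exact 95% counting interval from 43.9 to 9770. The emb1579-1-labelled libraries had 3.19, 3.18 and 3.01 CPM, and emb1579-3 had 1.93, 0.831 and 0.498 CPM. The lines did not overlap, and all 6 of their libraries lay between the 2 Col-0 libraries. The log2 differences from Col-0 were -0.38 (SE 1.21, adjusted p = 0.88) and -1.9 (SE 1.35, adjusted p = 0.414), and between the lines -1.52 (SE 1.31, adjusted p = 0.824).

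The sign for TAT3 was set by which Col-0 library was used. Without Col-0 replicate 2, TAT3 was higher in both lines, by 6.41 (adjusted p = 0.00189) and 4.89 (adjusted p = 0.0166), fitted against a library with 1 count. Without Col-0 replicate 1 it was lower, by -1.33 (adjusted p = 0.0449) and -2.85 (adjusted p = 0.00187). Col-0 replicate 2 also held counts at loci that were empty elsewhere: of 5732 nuclear loci at 0 in the other 7 libraries, 76.6% had counts there, with a median of 3 and a maximum of 56. TAT3 had 15 to 89 counts in the libraries of the lines, so it was not among those loci. Their maximum sets no bound for TAT3, and the source of its 295 counts was not tested. The same measure for Col-0 replicate 1 was 1.9% of 1367 loci.

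JMT makes the volatile methyl jasmonate from jasmonic acid. It was the lowest of the 6, at 0.450 and 0.832 CPM in Col-0, at 1.13, 0.607 and 0.288 CPM in the emb1579-1-labelled libraries and at 0.598, 0.831 and 1.23 CPM in emb1579-3, from 7 to 37 counts. All 3 genotypes overlapped. The log2 difference was 0.05 (SE 0.49, 95% interval -0.98 to 1.09) and 0.45 (SE 0.47, interval -0.54 to 1.45) from Col-0 and 0.40 (SE 0.44) between the lines, with adjusted p = 0.959, 0.562 and 0.862. Both intervals include 0, and true differences of the sizes inside them remain compatible with these libraries, whose levels spread up to 3.92-fold within a group.

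**Figure D2:**
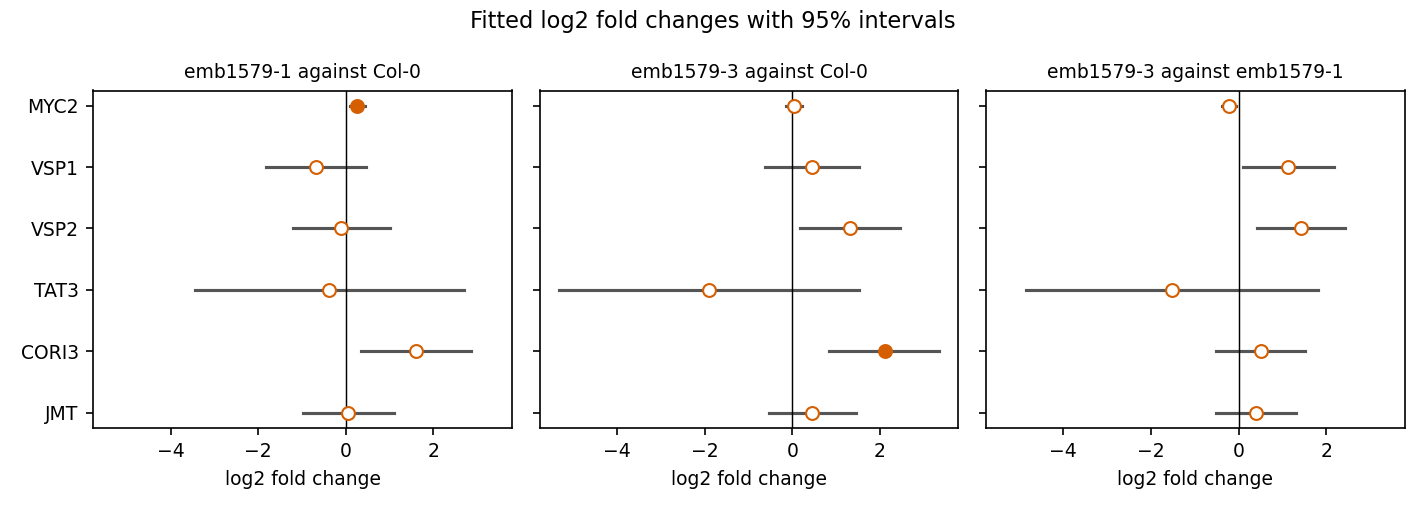
Fitted log2 fold change (horizontal axis) of each gene in the 3 comparisons, with 95% intervals; filled points passed an adjusted p under 0.05. The intervals of TAT3 are the widest, and the filled points are MYC2 in the emb1579-1-labelled libraries (0.26) and CORI3 in emb1579-3 (2.11).

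Over the 3 comparisons, members whose groups did not overlap numbered 2 of 6 for the emb1579-1-labelled libraries above Col-0 (MYC2 and CORI3), where 21.8% of all genes did so, and 0 of 6 below it, where 22.9% did. For emb1579-3 they were 2 of 6 above Col-0 (VSP2 and CORI3), against 24.2%, and 0 of 6 below, against 24.7%. Between the lines, VSP1 and VSP2 were higher in every emb1579-3 library, against 7.43% of all genes, and MYC2 and TAT3 lower, against 7.56%. MYC2 and the VSP genes were therefore ordered oppositely between the lines, while TAT3 was ordered as MYC2 was, and CORI3 and JMT overlapped. MYC2 averaged 114 CPM against 98.0 CPM, and VSP2 62.9 CPM against 168 CPM. Neither difference passed the reported edgeR test, and DESeq2 called that of VSP2 (adjusted p = 0.0445).

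Per kilobase of exon, the order of mean levels (RPKM) in Col-0 was VSP2 at 44.6, MYC2 at 28.9, VSP1 at 8.03, CORI3 at 4.17, TAT3 at 1.66 and JMT at 0.386. In the emb1579-1-labelled libraries, VSP2 at 41.5 and MYC2 at 34.7 were followed by CORI3 at 12.7, VSP1 at 5.02, TAT3 at 1.3 and JMT at 0.406. In emb1579-3 the order was VSP2 at 111, MYC2 at 29.8, CORI3 at 18.0, VSP1 at 11, JMT at 0.533 and TAT3 at 0.454. CORI3 thus stood below VSP1 in Col-0 and above it in both lines. Neighbours in these orders were not tested against each other.

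VSP1, VSP2, CORI3 and JMT were all higher in 1 library than in the rest of its group in Col-0 (replicate 2) and in the emb1579-1-labelled libraries (replicate 1), which was not so in emb1579-3. In emb1579-1 replicate 1 the level over the mean of the other 2 libraries of the line was 2.04 for VSP1, 2.35 for VSP2, 2.36 for CORI3 and 2.52 for JMT, and 1.03 for both MYC2 and TAT3. A level over 1.5 times the others was thus seen in 4 of 6 members in that library, against 5.42% of all genes tested. It was seen in 4 of 9 other jasmonate and wound outputs, 2 of 11 ethylene-jasmonate genes, 1 of 14 synthesis genes and 0 of 15 perception genes. Of the organ markers, 0 of 13 shoot and 3 of 11 root genes did so, and the library was the highest of its line in both marker sums (26200 and 879 CPM), of which PYK10 was 801 CPM; the other 10 root markers summed to 78 CPM there and to 70.4 and 71.4 CPM in the other 2 libraries. The part of organ make-up was not tested. In Col-0, replicate 2 was above 1.5 times replicate 1 in 3 of 6 members, VSP1 at 1.79, JMT at 1.85 and TAT3, against 8.61% of all genes. In emb1579-3 the log2 deviations from the mean in replicates 1, 2 and 3 were 0.23, -0.08 and -0.16 for VSP1, 0.21, 0 and -0.22 for CORI3 and 0.02, -0.11 and 0.09 for VSP2. JMT ran the other way there, at -0.46, -0.03 and 0.50.

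Taken as deviations from the genotype means over the 8 libraries, log2 levels of CORI3 had a Pearson r of 0.927 with VSP2 and 0.912 with VSP1. The r was 0.834 between VSP1 and VSP2, 0.802 between VSP2 and JMT, 0.765 between VSP1 and JMT and 0.677 between CORI3 and JMT. MYC2 had an r of -0.425 to 0.0454 with the other 5. Its deviations were only -0.09 to 0.07, so these values cannot show whether its transcript level moves with theirs within a genotype. TAT3 had an r of 0.243 to 0.539 with VSP1, VSP2, CORI3 and JMT. These values describe 8 points that share libraries and depth, and emb1579-1 replicate 1 contributes to each.

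**Figure D3:**
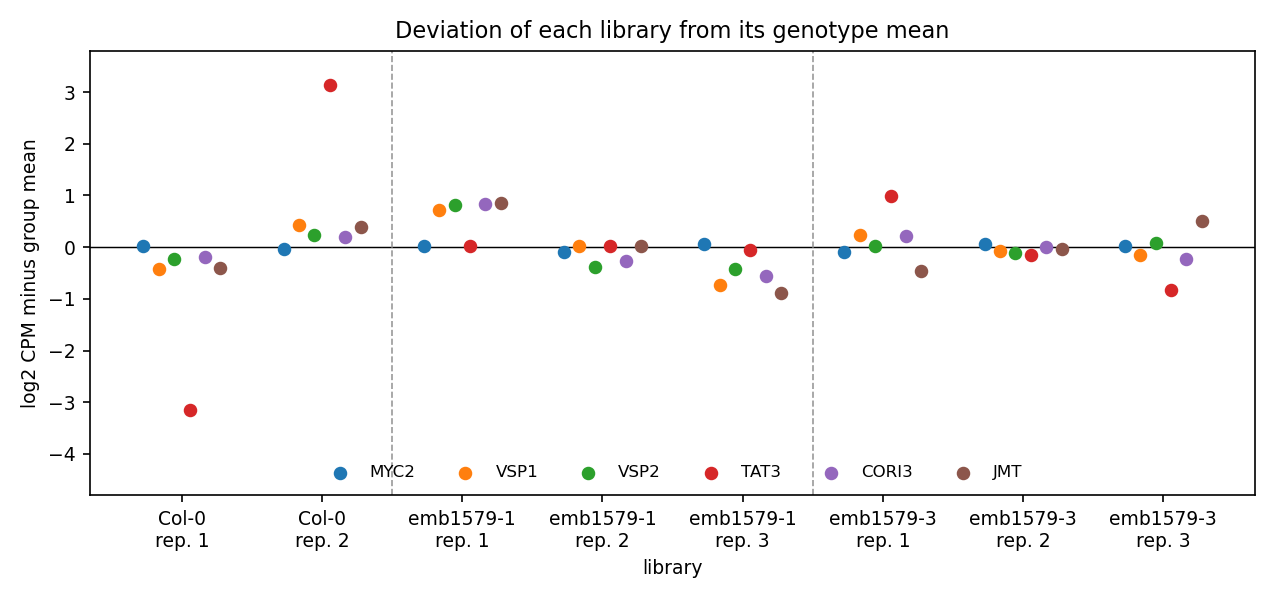
Deviation of log2 CPM from the genotype mean (vertical axis) in each of the 8 libraries, with 1 coloured point per gene. VSP1, VSP2, CORI3 and JMT all lie above 0 in Col-0 replicate 2 and emb1579-1 replicate 1, MYC2 stays near 0 throughout, and TAT3 runs furthest from 0 in the Col-0 libraries.

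For each member, the 2 nuclear genes outside the 6 with the highest Pearson r of log2 CPM over the 8 libraries were found. For CORI3 they were UGP1, a UDP-glucose pyrophosphorylase gene (0.988), and LOX2, a lipoxygenase of jasmonate synthesis (0.986). For VSP2 they were HAI2, a protein phosphatase gene (0.966), and P5CS1, a gene of proline synthesis (0.965). For VSP1 they were 4CL8 (0.969) and NTF2A (0.963), for MYC2 SYP42 (0.964) and the zinc-finger gene ZAT6 (0.949), for TAT3 AIG1 (0.986) and WAK4, a wall-associated kinase gene (0.969), and for JMT MAPKKK21 (0.933) and DAD2 (0.914). LOX2 was at 144 and 207 CPM in Col-0, 715, 387 and 376 CPM in the emb1579-1-labelled libraries and 868, 763 and 775 CPM in emb1579-3. As for CORI3, replicate 1 was the highest in both lines, and the order of the other libraries differed in part.

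Upstream of MYC2, genes of jasmonate synthesis were called higher more often than not. Paired values are given for the emb1579-1-labelled libraries first and for emb1579-3 second. In the emb1579-1-labelled libraries, 10 of 14 were higher and 1 lower (median log2 fold change 0.61). In emb1579-3, 8 were higher and 0 lower (median 0.40). Over all genes, 8.27% and 9.95% were higher, and 9.54% and 10.3% were lower. The lipoxygenase gene LOX2 rose by 1.49 in the former (SE 0.35, adjusted p = 0.0404) and by 2.19 in the latter (SE 0.36, adjusted p = 0.0111). The allene oxide cyclase genes AOC1 and AOC2, whose transcripts were 84.9% identical and shared 0 words of 50 bases, rose in both lines: AOC1 by 2.34 (SE 0.20) and then 2.22 (SE 0.20), AOC2 by 1.15 (SE 0.13) and then 1.38 (SE 0.13). OPCL1, a CoA ligase of the later steps, rose by 0.65 (SE 0.08) and 0.39 (SE 0.08). JAR1, which joins jasmonic acid to isoleucine, was the 1 gene that fell in the emb1579-1-labelled libraries, at -0.24 (SE 0.08, adjusted p = 0.0465). Its call was lost in 12 of 18 alternatives. It was lost without either Col-0 library, without replicate 2 or 3 of that line, or without emb1579-3 replicate 1 or 2. The call was also lost with RLE size factors, library totals only or no filter on low counts. So it was with only the genotypes compared, with a replicate block and without robust estimates. The LOX2 call in the emb1579-1-labelled libraries was lost without either Col-0 library or any 1 emb1579-3 library. It was also lost there with only the genotypes compared. In emb1579-3 the LOX2 call was lost without Col-0 replicate 1. Both LOX2 calls were lost with a replicate block and with all 9 libraries. LOX6 and KAT2 had log2 differences within -0.07 to 0.10.

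Genes of jasmonate breakdown were called higher in 2 of 8 in the emb1579-1-labelled libraries and in 1 of 8 in emb1579-3, where 8.27% and 9.95% of all genes were higher, with medians of 0.34 and -0.01 and 0 lower. ST2A, a sulfotransferase gene that acts on hydroxylated jasmonate, rose by 1.88 in the former (SE 0.27, adjusted p = 9.12e-05) and by 1.86 in the latter (SE 0.27, adjusted p = 9.54e-05). IAR3, an amidohydrolase gene that frees jasmonic acid from its conjugate, rose by 0.47 (SE 0.11, adjusted p = 0.00552) in the emb1579-1-labelled libraries, a call lost without Col-0 replicate 2, and differed by 0.27 in emb1579-3 (adjusted p = 0.0882).

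Of the perception and repression genes, 5 of 15 were higher and 0 lower in the emb1579-1-labelled libraries, and 2 were higher and 1 lower in emb1579-3 (medians 0.17 and 0.02). Of all genes, 8.27% were higher in the former, and 9.95% were higher and 10.3% lower in the latter, so the emb1579-3 counts are near the shares of the whole table. The repressor genes JAZ6, JAZ1 and JAZ9 rose by 1.13 (SE 0.10), 0.73 (SE 0.11) and 0.63 (SE 0.10) in the former, where JAZ2 and JAZ5, named after their values were seen, were also called. In emb1579-3, JAZ6 rose by 0.64 (SE 0.10) and JAZ1 by 0.42 (SE 0.11), the latter call being lost without Col-0 replicate 1 or emb1579-3 replicate 1. JAZ4 fell by 1.66 there (SE 0.35, adjusted p = 0.00248) and was at -0.95 in the emb1579-1-labelled libraries (adjusted p = 0.0551). The receptor gene COI1, which overlaps another gene, was at -0.02 and -0.05, with SE 0.09 each.

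Among the MYC2 relatives and branch factors, 2 of 9 were higher and 0 lower in the emb1579-1-labelled libraries. The same numbers were called in emb1579-3 (medians 0.03 and 0.11). Over all genes, 8.27% and 9.95% were higher. MYC3 and MYC4, the closest partners of MYC2, had log2 differences of 0.07 and 0.03 in the emb1579-1-labelled libraries and 0.11 and 0.08 in emb1579-3. MYC5, a further MYC of this clade, was at 1.54 and 2.04 CPM in Col-0, 1.81, 1.53 and 1.85 CPM in the emb1579-1-labelled libraries and 3.37, 3.82 and 5.61 CPM in emb1579-3. It rose in emb1579-3 against Col-0 (1.25, SE 0.23, adjusted p = 0.000871) and against the emb1579-1-labelled libraries (1.31, SE 0.21, adjusted p = 0.00327). ANAC055, a NAC factor gene downstream of MYC2, rose in both lines, by 1.16 (SE 0.22, adjusted p = 0.00128) and by 0.76 (SE 0.22, adjusted p = 0.0219), the second call being lost without either Col-0 library or without emb1579-3 replicate 1 or 2. JAM1, a bHLH repressor gene of MYC2 targets, rose by 0.34 (SE 0.09, adjusted p = 0.00985) in the emb1579-1-labelled libraries, a call lost without Col-0 replicate 2 or emb1579-1 replicate 3.

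On the output side, 3 of 9 other jasmonate and wound genes were higher in the emb1579-1-labelled libraries and 4 in emb1579-3. In both, 0 were lower (medians 0.51 and 0.73). Over all genes, 8.27% and 9.95% were higher. CLH1, a chlorophyllase gene, rose by 1.03 (SE 0.11) and 1.12 (SE 0.11), and JR1, a jacalin lectin gene, by 0.33 (SE 0.09) and 0.41 (SE 0.09). The JR1 call in the emb1579-1-labelled libraries was lost without Col-0 replicate 1 or emb1579-1 replicate 3. The arginase gene ARGAH2 rose by 1.99 in emb1579-3 (SE 0.30, adjusted p = 0.007). TPS04, a terpene synthase gene, and NATA1, an acetyltransferase gene, had 0 counts in Col-0 replicate 1 and 91 and 26 in replicate 2, as TAT3 had 1 and 295. ASA1, an anthranilate synthase gene, was the other gene called in the emb1579-1-labelled libraries (0.41, SE 0.09), and MBP1, named after its values were seen, the other in emb1579-3. The MBP1 call was lost without either Col-0 library, without any 1 emb1579-3 library and without emb1579-1 replicate 3.

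The ethylene-jasmonate branch was called higher in 6 of 11 genes in the emb1579-1-labelled libraries and in 7 of 11 in emb1579-3. In both, 0 were lower, and the medians were 1.53 and 1.03. Over all genes, 8.27% and 9.95% were higher. The defensin gene PDF1.2A, which shared 3 words of 50 bases with PDF1.2C, rose by 2.63 in the former (SE 0.31, adjusted p = 1.15e-05) and by 3.42 in the latter (SE 0.29, adjusted p = 3.02e-07), and the regulator gene ERF2 by 0.79 (SE 0.10) and 0.62 (SE 0.09). ORA59 rose by 1.77 in the former (SE 0.32, adjusted p = 0.000987) and by 1.03 in the latter (SE 0.33, adjusted p = 0.0369), the second call being lost without either Col-0 library or without emb1579-3 replicate 1 or 2. ERF1, with 2 to 19 counts per library, differed by 0.64 (SE 0.73) and 0.04 (SE 0.78), with no call. EIN3, also of this list, was at -0.07 and -0.04 (SE 0.08 each), with no call. The counts of the 2 branches were not tested against each other.

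Of the close relatives of the 6 genes, 2 of 9 were higher and 1 lower in the emb1579-1-labelled libraries, and 1 higher and 3 lower in emb1579-3 (medians 0.21 and 0.10). In either direction these are 3 and 4 of 9, where 17.8% and 20.3% of all genes were called. FAMT, a methyltransferase gene of the JMT family, rose by 1.24 (SE 0.16) and 1.08 (SE 0.16), and NAMT1 of the same family fell by 1.61 in emb1579-3 (SE 0.39, adjusted p = 0.00627). SUR1, an aminotransferase-like gene of glucosinolate synthesis, rose by 0.35 (SE 0.09, adjusted p = 0.0082) in the emb1579-1-labelled libraries, a call lost without Col-0 replicate 1. AT4G28410, another relative of TAT3, fell by 1.18 and 1.16 (SE 0.36 each), with calls lost without Col-0 replicate 2, in the former without emb1579-1 replicate 2 or 3 and in the latter without emb1579-3 replicate 1 or 3. AT4G29260, a relative of the VSPs, was the remaining gene called lower in emb1579-3, at -0.37 (SE 0.12, adjusted p = 0.0379), a call lost without Col-0 replicate 1 or emb1579-3 replicate 1 or 3.

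**Figure D4:**
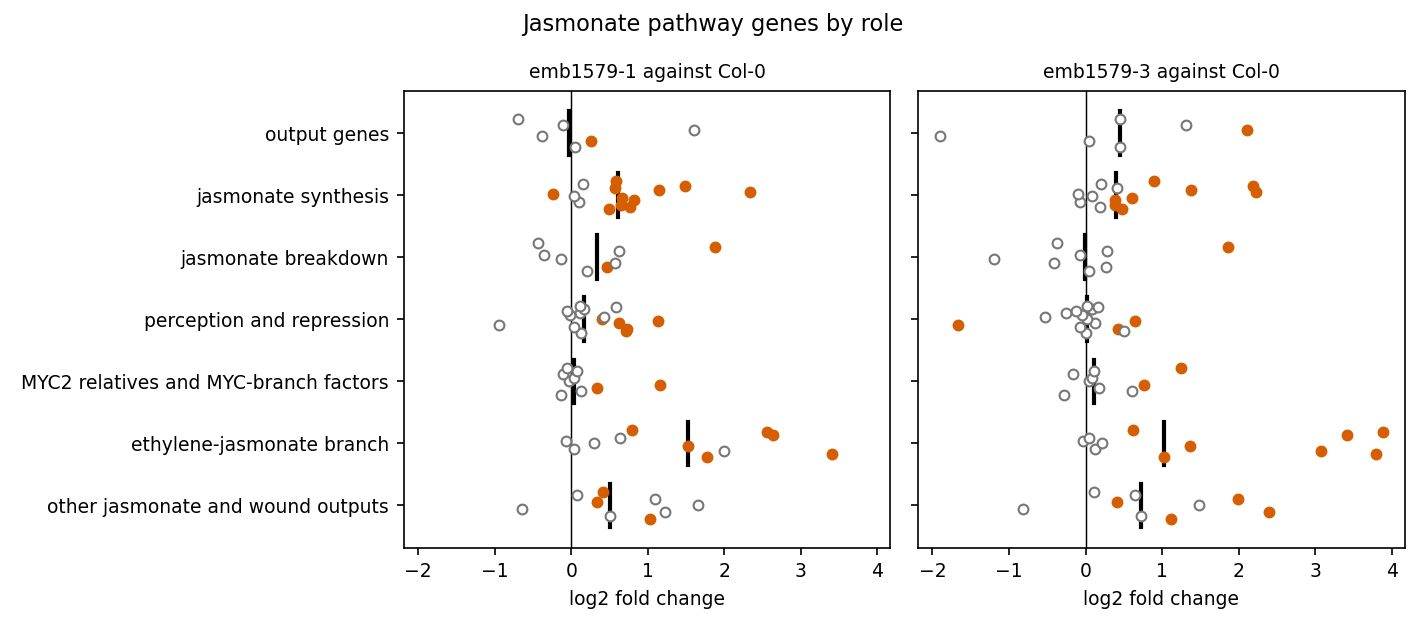
Log2 fold change against Col-0 (horizontal axis) of each tested gene by role, with the emb1579-1-labelled libraries on the left and emb1579-3 on the right; filled points passed an adjusted p under 0.05 and black bars are medians. The medians are 0.61 and 0.40 for synthesis genes, 1.53 and 1.03 for the ethylene-jasmonate branch and -0.03 and 0.45 for the 6 output genes.

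Between the lines, 2 synthesis genes and 2 repressor genes were lower in emb1579-3. LOX4 differed by -0.42 (SE 0.08, adjusted p = 0.016) and LOX3, named after its values were seen, by -0.59 (SE 0.09, adjusted p = 0.00184). JAZ6 differed by -0.49 (SE 0.08, adjusted p = 0.00616) and JAZ9 by -0.50 (SE 0.09, adjusted p = 0.00858). The LOX4 call was lost without emb1579-1 replicate 2 or 3 or emb1579-3 replicate 2, that of JAZ6 without emb1579-1 replicate 3, and that of JAZ9 without emb1579-1 replicate 2 or 3 or emb1579-3 replicate 3. MYC2 and TAT3 were also lower there, at -0.22 and -1.52 with no edgeR call. VSP1, VSP2, CORI3 and JMT had positive values of 1.14, 1.42, 0.51 and 0.40 with no edgeR call.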

How the data were processed

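The authors deposited 1 table of whole-number counts per gene for 33602 loci and 9 libraries. Per the submitters' processing notes, FastQC, HISAT2, Cufflinks, Cuffdiff and build TAIR10 were used; strand setting and counting tool were not given in the sources used here. Symbols, positions and promoters came from RefSeq's TAIR10.1, which matched 32835 loci. The members and gene lists were chosen with earlier results of these data known. Col-0 replicate 3 was left out by the rule for the members. The deposited counts of 8 libraries were fitted with edgeR 4.0.16 (R 4.3.3), using TMM factors, its default expression filter (20668 genes), robust dispersions and a quasi-likelihood F-test with Benjamini-Hochberg adjustment over all genes tested. The fit had 5 residual degrees of freedom (common BCV 0.0904). SE was taken as |log2 fold change| over √F. CPM used TMM-scaled totals. The counting interval covers counting error only. The genes named are the members, EMB1579, the 2 most alike genes per member, and per list up to 4 with the smallest and 2 with the largest adjusted p. Motifs were counted after the members were chosen. Alternatives included DESeq2 1.42.0, other filters, all 9 libraries and each library left out. The scripts were tested on simulated counts.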

Additional observations from a re-analysis of the deposited data

How the results depend on the processing

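Of the members' log2 fold changes under all alternatives, 275 kept direction and side of the threshold, 16 lost a call, 23 gained one and 10 reversed. Of the 956 alternative values for called pathway genes and EMB1579, 113 lost the call and 1 reversed, JAR1 in the libraries labelled emb1579-1.

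Members called higher in the emb1579-1-labelled libraries numbered 2 with DESeq2, 2 without robust estimates (chosen after seeing the data), and 0 with all 9 libraries, with only the genotypes compared, or with a replicate block; 1 was lower with no filter. In emb1579-3 they numbered 3 with no filter, 2 with DESeq2, with only the genotypes compared or without robust estimates, and 0 with all 9 libraries or the replicate block; 1 was lower with no filter. Between the lines they numbered 3 with no filter and 1 with DESeq2 or without robust estimates, and 1 was lower with no filter. Leaving out 1 library gave 0 to 2 higher in each comparison and 0 to 1 lower (0 to 0 between the lines).

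Over all genes the calls were 1710 higher and 1972 lower, 2057 and 2136, and 86 and 83 in the comparisons as listed. They were 1021 and 1135, 1257 and 1233, and 55 and 49 with a filter of 10 CPM in 3 libraries, and 53 and 43, 66 and 68, and 0 and 0 with all 9 libraries. Between the lines they were 279 and 290 with no filter and 173 and 192 with DESeq2. With library totals only they were 2479 and 1435, 2574 and 1611, and 67 and 104. Leaving out 1 library gave 1119 to 2010 and 1365 to 3075, 1263 to 2510 and 1490 to 3069, and 33 to 205 and 28 to 145.

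Leaving out 1 library, VSP2 in the emb1579-1-labelled libraries ran from -0.64 to 0.14, JMT from -0.51 to 0.57, TAT3 from -1.33 to 6.41 and MYC5 from -0.23 to 0.16, and TAT3 in emb1579-3 from -2.85 to 4.89. In the former libraries, VSP2 reversed to 0.39 with all 9 libraries, 0.14 without Col-0 replicate 2 and 0.10 and 0.11 without emb1579-1 replicate 2 or 3. JMT reversed to -0.06 with all 9 libraries, -0.29 without Col-0 replicate 1 and -0.51 without emb1579-1 replicate 1. TAT3 reversed to 0.15 with the replicate block and to 6.41 without Col-0 replicate 2 (4.89 in emb1579-3). EMB1579 reversed to 0.05 with library totals only, 0.35 with all 9 libraries and 0 with the block, MYC5 to 0.02 with library totals, 0.16 without Col-0 replicate 2 and 0.03 without emb1579-1 replicate 2, and JAM2 to 0 and JAR1 to 0.07 (0.21 in emb1579-3) with all 9 libraries. The causes were not tested. VSP2 in emb1579-3 passed with DESeq2 (1.32, adjusted p = 0.0305) and with only the genotypes compared (1.31, adjusted p = 4.11e-06).

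Same-numbered deviations of different genotypes correlated at -0.154 to 0.292, and those with different numbers at -0.3 to 0.2. The 2 Col-0 libraries mirror each other in this measure by construction. Whether the replicate numbers pair the libraries was thus left undecided. With the replicate block the calls were 1689 and 1883, 1930 and 1901, and 127 and 123. MYC2 (adjusted p = 0.0598) and CORI3 (adjusted p = 0.0608) lost their edgeR calls with it. LOX2 and AT4G28410 lost theirs in both lines, JAR1 in the emb1579-1-labelled libraries, and ORA59, MBP1 and AT4G29260 in emb1579-3. The AT4G29260 call was also lost with library totals only.

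With no filter edgeR's prior degrees of freedom were infinite, so a gene's own spread was not used; in the reported fit they were 0.393 or less for VSP1, VSP2, TAT3 and CORI3. Col-0 rested on 2 libraries, and leaving 1 out assumes that the other varies as the libraries of the lines do. JMT rested on 7 to 37 counts.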
